A study of Homo sapiens with 6 samples.

Results

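IL6 and 9 other genes of the inflammatory secretion that is typical of senescent cells (LIF, IL11, CXCL8, CXCL1, CXCL2, CXCL3, CCL2, IL1A and IL1B) were followed in human immortalized cardiomyocytes in which CIRBP, a cold-inducible RNA-binding protein, had been silenced. The genes were taken by symbol, 10 of the 58884 genes in the deposited table, and IL6 was chosen by its measured counts, which were low in all SiCIRBP libraries and in NC_1, so that its values are given as a description with no test. RNA-seq had been carried out on 3 libraries of cells transfected with negative control siRNA (NC) and 3 libraries of cells transfected with siRNA against CIRBP (SiCIRBP), all of a single line that the labels call T0519 and the study's text calls AC16. No drug is named in the labels of either group, and the labels do not say whether the libraries of a group came from separate cultures, so that p-values measure the spread between these libraries, which may be technical. The study compared NC_2 and NC_3 with SiCIRBP_1 and SiCIRBP_3 and left out NC_1 and SiCIRBP_2, and values from all 6 libraries are set beside that comparison here.

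Each library held between 25726259 and 29919566 estimated read counts. Levels of 1 gene between libraries are given as CPM (read counts scaled to a common library size, with the TMM factors of edgeR), and levels of different genes are compared in TPM, which also divides by transcript length. CIRBP was between 85.8 and 91.0 CPM in the NC libraries, and was 54.8 CPM in SiCIRBP_1, 24.3 CPM in SiCIRBP_2 and 46.3 CPM in SiCIRBP_3. Of 15 cardiomyocyte markers, 9 had 3 or fewer counts in every library, including MYH6, MYL2, PLN and TNNT2, whereas GATA4, which encodes a cardiac transcription factor, was at 47.4 CPM or above in every library. Of 8 fibroblast markers, 7 had more than 3 counts in every library, and COL1A1 was at 1629 CPM or above. Most defining markers of the labelled cell type were thus at or near 0. SiCIRBP_2 stood apart from the other libraries, with 22 interferon-stimulated genes that summed to 5522 CPM against 463 to 481 CPM in the NC libraries, 240 CPM in SiCIRBP_1 and 994 CPM in SiCIRBP_3.

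The 10 genes fall into 3 families by the receptors they use. IL6, LIF and IL11 signal through receptor complexes that share gp130 (IL6ST) and activate JAK kinases and STAT3; CXCL1, CXCL2, CXCL3, CXCL8 and CCL2 are chemokines that attract neutrophils or monocytes; and IL1A and IL1B are the ligands of the interleukin-1 receptor, which activates NF-kB. In many cell types NF-kB, AP-1 and C/EBP factors bind near the start of these genes, and their mRNAs are short-lived, being degraded through elements that several RNA-binding proteins recognize. In the heart, IL6, LIF and IL11 act on both cardiomyocytes and fibroblasts, and CCL2 recruits monocytes after injury.

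The sequences upstream of 6 of the genes are shown to describe the motifs they hold, and no relation of these motifs to the levels was tested. Each is the 250 bases before the start annotated by RefSeq on GRCh38.p14, written 5′ to 3′ on the strand of the gene, with capitals marking matches, on either strand, to 4 motifs, namely GGANTTTCC (NF-kB), TGANTCA (AP-1), ACGTCA (the core of a cAMP response element) and TTGCNNAA (C/EBP). The windows lie at chr7:22726950-22727199 on the plus strand (IL6), chr4:73740319-73740568 on the plus strand (CXCL8), chr4:73869143-73869392 on the plus strand (CXCL1), chr4:74099196-74099445 on the minus strand (CXCL2), chr4:74038690-74038939 on the minus strand (CXCL3) and chr2:112836780-112837029 on the minus strand (IL1B).
IL6: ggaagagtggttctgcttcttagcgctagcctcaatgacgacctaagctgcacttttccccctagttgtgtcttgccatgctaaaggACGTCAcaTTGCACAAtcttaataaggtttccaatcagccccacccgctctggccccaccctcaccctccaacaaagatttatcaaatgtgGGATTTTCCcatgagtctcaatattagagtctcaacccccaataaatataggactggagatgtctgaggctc
CXCL8: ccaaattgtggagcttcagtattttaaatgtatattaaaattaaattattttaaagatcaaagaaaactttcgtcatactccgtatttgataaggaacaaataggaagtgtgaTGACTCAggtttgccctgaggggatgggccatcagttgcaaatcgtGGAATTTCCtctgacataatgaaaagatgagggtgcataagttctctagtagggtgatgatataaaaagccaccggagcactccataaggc
CXCL1: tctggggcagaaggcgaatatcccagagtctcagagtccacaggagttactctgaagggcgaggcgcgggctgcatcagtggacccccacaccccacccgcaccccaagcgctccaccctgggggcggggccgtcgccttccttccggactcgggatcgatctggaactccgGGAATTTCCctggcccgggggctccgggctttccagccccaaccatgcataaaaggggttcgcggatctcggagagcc
CXCL2: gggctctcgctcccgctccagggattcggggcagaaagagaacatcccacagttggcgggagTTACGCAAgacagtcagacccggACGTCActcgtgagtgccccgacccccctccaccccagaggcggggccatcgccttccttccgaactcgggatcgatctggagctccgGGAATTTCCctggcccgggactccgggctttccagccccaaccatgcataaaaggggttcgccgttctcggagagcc
CXCL3: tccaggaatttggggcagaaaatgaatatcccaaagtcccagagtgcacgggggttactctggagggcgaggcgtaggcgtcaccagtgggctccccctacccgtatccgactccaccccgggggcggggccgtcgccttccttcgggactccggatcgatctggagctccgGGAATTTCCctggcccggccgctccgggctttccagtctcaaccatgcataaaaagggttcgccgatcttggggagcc
IL1B: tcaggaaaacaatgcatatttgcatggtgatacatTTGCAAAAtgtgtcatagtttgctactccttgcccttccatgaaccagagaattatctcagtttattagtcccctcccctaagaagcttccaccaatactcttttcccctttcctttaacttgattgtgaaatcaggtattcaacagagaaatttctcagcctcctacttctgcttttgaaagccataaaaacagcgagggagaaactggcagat
The NF-kB letters were present in 1.45% of 35116 RefSeq promoter windows of the same length, the AP-1 letters in 6.57%, the cAMP response core in 7.1% and the C/EBP letters in 9.05%. The NF-kB letters ended 64 bases before the start in IL6, 83 bases before it in CXCL8, 70 bases before it in CXCL1 and CXCL3 and 69 bases before it in CXCL2, and no match to these letters lay in the IL1B window. IL6 also held the cAMP response core, 163 to 158 bases before the start, and the C/EBP letters, 155 to 148 bases before it. CXCL2 held both of these as well, CXCL8 held the AP-1 letters and IL1B held the C/EBP letters. The window of CXCL3 was identical to that of CXCL1 at 81.4% of aligned positions and to that of CXCL2 at 73.3%, whereas the window of IL6 was identical to that of CXCL1 at 47.8%. Matches of letters describe these windows and do not show binding. RefSeq windows were found for 8 of the 10 genes, with none for LIF or CCL2. The windows of IL11 and IL1A, which are not printed, held the AP-1 letters and no match to the NF-kB letters.

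IL6 (GRCh38, chromosome 7, 22725884 to 22732002, plus strand) had an mRNA level of 16.3 CPM in NC_1, 54.5 CPM in NC_2 and 59.8 CPM in NC_3. It was at 8.08 CPM in SiCIRBP_1, 12.6 CPM in SiCIRBP_2 and 5.81 CPM in SiCIRBP_3. Every SiCIRBP library was lower than every NC library. NC_1 was far nearer to SiCIRBP_2 than to the other NC libraries, and NC_2 and NC_3 averaged 3.51 times its level. The order of the libraries was NC_3, NC_2, NC_1, SiCIRBP_2, SiCIRBP_1 and SiCIRBP_3. Of neighbours in this order, only NC_2 and NC_1 were separated by more than the SD between the 3 NC libraries (23.7 CPM). That SD includes the low value of NC_1, and the SD of NC_2 and NC_3 alone was 3.73 CPM. In TPM the same order held, from 109.62 TPM in NC_3 to 9.53 TPM in SiCIRBP_3. The edgeR log2 fold change was -3.04 (SE 0.17) over the study's 4 libraries, that is 8.21-fold lower in SiCIRBP, and -2.30 (SE 0.49) over all 6. IL6 had between 163 and 1822 estimated counts per library, so that counting error was small beside these differences. On the opposite strand it overlaps an antisense gene, AC073072.1, which was between 0.328 and 1.40 CPM in all 6 libraries, and 17.4% of the 31-base words of the IL6 transcripts occur in that gene. STEAP1B, also on the opposite strand, overlaps IL6 over 1730 bases and was at 0.389 CPM in SiCIRBP_2 and at 0.0388 CPM or less in the other libraries. Whether the counting used the strand is not given in the sources used here. In these bulk libraries, a smaller number of cells that express a cytokine cannot be told apart from less RNA per cell.

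**Figure D1:**
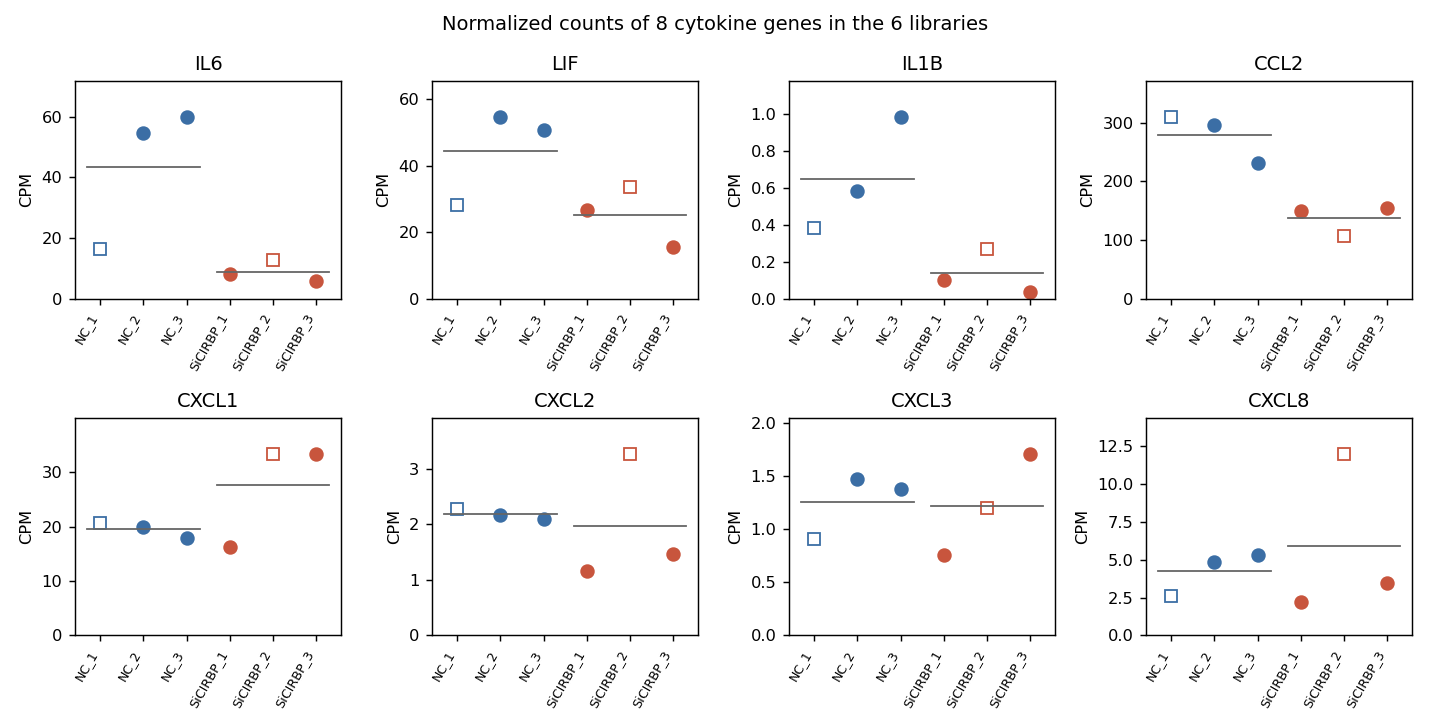
Normalized counts (CPM, vertical axis from 0) of 8 cytokine genes in each of the 6 libraries (horizontal axis), with NC in blue and SiCIRBP in red, open squares for the libraries the study left out (NC_1 and SiCIRBP_2) and grey lines for the mean of the 3 libraries of a group. IL6, IL1B and CCL2 show every SiCIRBP library under every NC library, LIF shows NC_1 level with the SiCIRBP libraries, and CXCL1, CXCL2, CXCL3 and CXCL8 overlap between the groups.

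LIF, the second gp130 cytokine, is located on chromosome 22 (30240447 to 30246851, minus strand). It was at 28.2 CPM in NC_1, 54.5 CPM in NC_2 and 50.8 CPM in NC_3, and at 26.6 CPM in SiCIRBP_1, 33.6 CPM in SiCIRBP_2 and 15.5 CPM in SiCIRBP_3. NC_2 and NC_3 lay above all SiCIRBP libraries, but NC_1 lay below SiCIRBP_2. Over the 4 libraries LIF fell by 1.32 on the log2 scale (SE 0.23, adjusted p = 0.0156, edgeR, Benjamini-Hochberg over all genes tested). With all 6 libraries its log2 fold change was -0.82 (SE 0.33, adjusted p = 0.184, edgeR), and an exact two-sided permutation test of 3 against 3 libraries gave p = 0.2, where 0.1 is the smallest p that design allows. With either NC_2 or NC_3 left out, the adjusted p of LIF in edgeR rose to 0.0789 or 0.0964, and without SiCIRBP_3 its log2 fold change was -0.99. In TPM the groups did not overlap, at 15.1, 22.8 and 18.7 TPM in NC_1, NC_2 and NC_3 against 9.77, 11.3 and 5.32 TPM in SiCIRBP_1, SiCIRBP_2 and SiCIRBP_3. The counts and TPM of LIF imply a transcript length of 3165 bases in NC_1 and of 4079 to 4784 bases in the other libraries, so that the 2 scales differ for this gene by the length assigned in each library. LIF overlaps 2 antisense genes on the opposite strand, of which AC004264.1 was between 0.214 and 1.02 CPM and LIF-AS1 was listed at 0 in all 6 libraries, and the limit on strand given for IL6 holds for LIF too.

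IL11, the third gp130 cytokine, was close to absent. It had 0, 7 and 5 estimated counts in NC_1, NC_2 and NC_3 and 1, 5 and 4 counts in SiCIRBP_1, SiCIRBP_2 and SiCIRBP_3, and did not pass the filter on low counts. A difference in IL11 was not detectable at this depth.

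IL1B (chromosome 2, 112829751 to 112836903, minus strand) was also scarce. It had 11, 15 and 30 counts in NC_1, NC_2 and NC_3, or 0.386, 0.582 and 0.984 CPM, and 3, 7 and 1 counts in SiCIRBP_1, SiCIRBP_2 and SiCIRBP_3, or 0.103, 0.272 and 0.0356 CPM. The groups did not overlap, and NC_1 was again the lowest NC library and SiCIRBP_2 the highest SiCIRBP library. Over the 4 libraries the summed counts were 45 and 4, an 11.5-fold ratio per library size with a 95% exact binomial interval of 4.18 to 43.9 that covers counting error only. IL1B passed the filter on low counts only through the NC libraries, where it was higher, so that its fold change is given as a description with no test. The log2 fold change was -3.42 (SE 0.67) over the 4 libraries and -2.25 (SE 0.67) over all 6, with a summed ratio of 4.98 over all 6 (95% exact binomial interval 2.58 to 10.5). IL1A, the other ligand of the same receptor, had 1 count in NC_3, 3 counts in SiCIRBP_2 and 0 in the other libraries, and could not be tested.

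CCL2, the monocyte chemokine, was by far the most abundant of the 10 genes. The gene is located on chromosome 17 (34255218 to 34257203, plus strand). Its level was 309 CPM in NC_1, 297 CPM in NC_2 and 232 CPM in NC_3, against 150 CPM in SiCIRBP_1, 107 CPM in SiCIRBP_2 and 154.5 CPM in SiCIRBP_3. The groups did not overlap, and NC_1 was the highest library of all, unlike its place for IL6 and LIF. CCL2 fell by 0.80 on the log2 scale over the 4 libraries (SE 0.12, adjusted p = 0.0114, edgeR), which is 1.74-fold and short of the 2-fold threshold used for a call. Without NC_2 the adjusted p of CCL2 was 0.0802 (edgeR). With all 6 libraries its log2 fold change was -1.03 (SE 0.18) with an adjusted p of 0.0869 in edgeR and of 6.7e-05 in DESeq2. The exact two-sided permutation test gave p = 0.1 for CCL2, the smallest possible. In TPM, CCL2 made up between 71.3% and 90.1% of the summed level of the 10 genes in each library, and that sum was 903, 961 and 803 TPM in NC_1, NC_2 and NC_3 and 429, 335 and 469 TPM in SiCIRBP_1, SiCIRBP_2 and SiCIRBP_3.

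Of the neutrophil chemokines, which lie together on chromosome 4, none passed the test in either direction over the 4 or over all 6 libraries. CXCL1 (73869393 to 73871242, plus strand) was at 20.7, 20.0 and 17.9 CPM in NC_1, NC_2 and NC_3, against 16.3 CPM in SiCIRBP_1 and 33.3 CPM in both SiCIRBP_2 and SiCIRBP_3. The NC libraries thus lay between the SiCIRBP libraries. Its log2 fold change was 0.39 (SE 0.30, adjusted p = 0.393, edgeR) over the 4 libraries and 0.50 (adjusted p = 0.281, edgeR) over all 6, and it was -0.22 without SiCIRBP_3.

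CXCL8 (73740506 to 73743716, plus strand), which encodes interleukin-8, had a fold change whose sign differed with the libraries used. It was at 2.63, 4.82 and 5.31 CPM in NC_1, NC_2 and NC_3 and at 2.19, 12.0 and 3.49 CPM in SiCIRBP_1, SiCIRBP_2 and SiCIRBP_3. SiCIRBP_2 had the highest level and SiCIRBP_1 the lowest, with NC_1 next to it. The log2 fold change was -0.84 over the 4 libraries (SE 0.27, adjusted p = 0.074, edgeR) and 0.46 over all 6 (SE 0.60, adjusted p = 0.65, edgeR). With SiCIRBP_3 left out of the 4, CXCL8 was at -1.21 with an adjusted p of 5.15e-05 in edgeR, in a fit that has a single SiCIRBP library.

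CXCL2 (74097035 to 74099293, minus strand) and CXCL3 (74036589 to 74038807, minus strand) were low in every library. CXCL2 was at 2.28, 2.17 and 2.10 CPM in NC_1, NC_2 and NC_3 and at 1.16, 3.27 and 1.46 CPM in SiCIRBP_1, SiCIRBP_2 and SiCIRBP_3, with a log2 fold change of -0.70 over the 4 libraries (SE 0.29, adjusted p = 0.133, edgeR) and -0.16 over all 6. The NC libraries agreed closely and SiCIRBP_2 lay above them while the other SiCIRBP libraries lay below. CXCL3 was at 0.911, 1.48 and 1.38 CPM in NC_1, NC_2 and NC_3 and at 0.753, 1.21 and 1.71 CPM in SiCIRBP_1, SiCIRBP_2 and SiCIRBP_3, and its log2 fold change was -0.21 (SE 0.43, adjusted p = 0.756, edgeR). Its groups overlapped throughout. Reads of these paralogs may have been divided between them, since 22.5% of the 31-base words of CXCL2, 14.4% of those of CXCL1 and 9.54% of those of CXCL3 occur in other genes, mostly in each other.

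**Figure D2:**
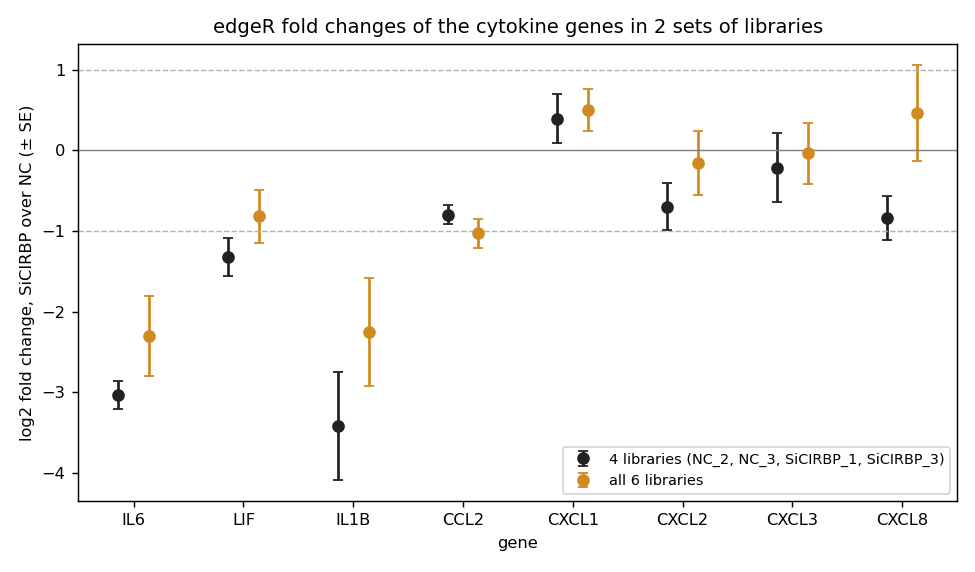
Log2 fold change of SiCIRBP over NC (vertical axis, points with bars of 1 SE, edgeR) for 8 cytokine genes (horizontal axis), from the study's 4 libraries in black and from all 6 in orange, with dashed lines at 2-fold. IL6, LIF, IL1B and CCL2 lie below 0 in both sets, while CXCL8 moves from -0.84 to 0.46 between them.

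Of the 9 genes other than IL6, 7 passed the filter on low counts. LIF passed the threshold for lower over the 4 libraries (edgeR, adjusted p under 0.05 and at least 2-fold), as did 1.8% of the 15421 genes tested, and 0 passed it for higher, as did 1.82%. IL1B was past the threshold as well, but it had entered the test only through its NC counts, and it is not counted here. By adjusted p alone LIF and CCL2 were lower, as were 9.76% of genes tested, and 0 were higher, against 9.62%. At an unadjusted p under 0.05 edgeR had LIF, CCL2, CXCL8 and CXCL2 over the 4 libraries, with IL1B not counted, against 36.6% of genes. Over all 6 libraries edgeR called 0 of the 7 and 0.0% of 15217 genes. At an unadjusted p under 0.05 it had LIF and CCL2, with IL1B again not counted, against 23.7% of all genes. DESeq2 called LIF lower over the 4 libraries, where it called 1.67% of genes lower and 1.25% higher, and CCL2 lower over all 6, where it called 1.1% lower and 1.15% higher. At an unadjusted p under 0.05, DESeq2 had 3 of the 5 to which it gave an adjusted p over the 4 libraries and 34.6% of genes, and 2 of 6 over all 6 and 25.2% of genes. IL1B had no adjusted p in DESeq2 in either set. In CPM, CCL2 had every SiCIRBP library below every NC library, as had 16.6% of genes, while 16.2% had every SiCIRBP library above. The calls differed with the libraries used, and in none of these fits was a gene of the 7 called higher.

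The balance between the cytokines differed between the libraries as well. In TPM, the ratio of IL6 to LIF was 4.38 in NC_2 and 5.85 in NC_3, but 1.94 in NC_1 and between 1.45 and 1.79 in the SiCIRBP libraries. The ratio of IL6 to CXCL1 was 2.72 in NC_2, 3.36 in NC_3, 0.83 in NC_1 and 0.165 to 0.516 in the SiCIRBP libraries, so that CXCL1 exceeded IL6 in NC_1 and in every SiCIRBP library. The ratio of CCL2 to CXCL1 was between 19.3 and 23.0 in the NC libraries and between 4.98 and 13.6 in the SiCIRBP libraries, with NC_1 here among the NC libraries. In the ratios of IL6 to LIF and to CXCL1, NC_1 lay above the SiCIRBP libraries but nearer to them than to NC_2 and NC_3. The ratio of IL6 to CCL2 was 0.127 in NC_2 and 0.174 in NC_3. In NC_1 it was 0.0360, within the range of the SiCIRBP libraries (0.0246 to 0.0766). IL6 was chosen for being low in NC_1 and in SiCIRBP, so that these ratios follow in part from that choice and are a description.

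Relative to the mean of NC_2 and NC_3, on the log2(CPM + 1) scale, the difference of NC_1 was -1.75 for IL6, -0.88 for LIF, -0.74 for CXCL8, -0.35 for IL1B and -0.34 for CXCL3. The same difference was 0.24 for CCL2, 0.12 for CXCL1 and 0.06 for CXCL2. CIRBP itself was as high in NC_1 as in the other NC libraries. SiCIRBP_2 differed from the mean of SiCIRBP_1 and SiCIRBP_3 by 1.78 for CXCL8, 0.89 for CXCL2, 0.79 for IL6, 0.70 for LIF and 0.50 for CXCL1, and by -0.51 for CCL2. In that library the 14 NF-kB feedback genes summed to 808 CPM, against 447 to 479 CPM in NC and 351 and 446 CPM in SiCIRBP_1 and SiCIRBP_3, and the part of this or of the interferon-stimulated genes in its chemokine levels was not tested.

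**Figure D3:**
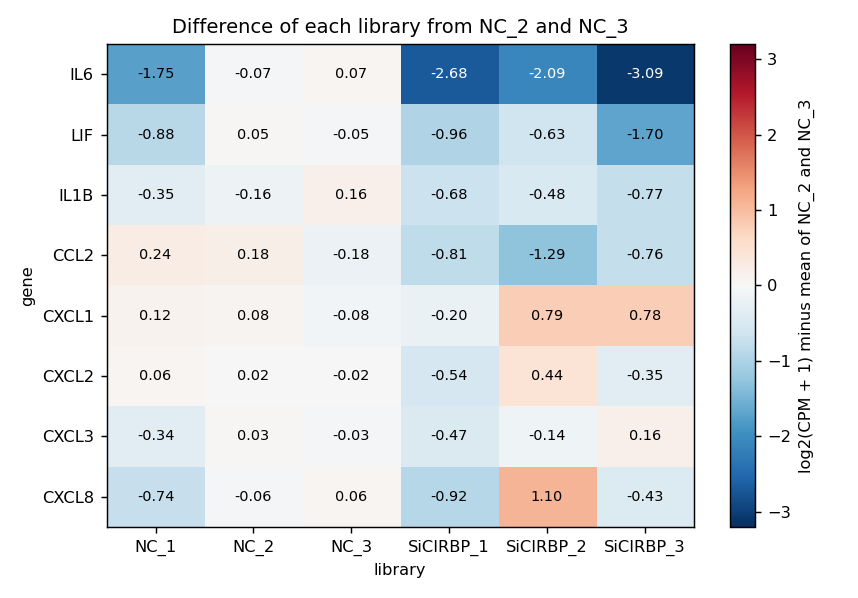
Difference of each library (horizontal axis) from the mean of NC_2 and NC_3 in log2(CPM + 1), for 8 cytokine genes (vertical axis), with lower values in blue and higher values in red. NC_1 has -1.75 for IL6 and -0.88 for LIF but 0.24 for CCL2, and SiCIRBP_2 has 1.10 for CXCL8.

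Among the genes whose levels followed IL6 most closely over the 6 libraries were PHLDB2 (Pearson's r = 0.999), STAT5B (0.997), NFIL3 (0.996) and PDE10A (0.994), out of 10685 genes with a mean of at least 5 CPM. The correlations are over 6 libraries of only 2 groups, in which NC_2 and NC_3 were high and the other 4 low, and they are given as a description. PHLDB2 had 35.7, 51.4 and 52.1 CPM in NC_1, NC_2 and NC_3 and 29.04, 32.6 and 27.3 CPM in SiCIRBP_1, SiCIRBP_2 and SiCIRBP_3. NFIL3, which encodes a bZIP repressor, had 51.9, 79.7 and 79.5 CPM in NC_1, NC_2 and NC_3 and 43.4, 46.0 and 37.5 CPM in SiCIRBP_1, SiCIRBP_2 and SiCIRBP_3. The order of the libraries was thus close to that of IL6, at a smaller range. Among the cytokines, r with IL6 was 0.958 for IL1B, 0.934 for LIF (rank 293 of the 10685), 0.636 for CCL2, 0.253 for CXCL8 and -0.48 for CXCL1.

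In the gene lists that follow, every edgeR call and adjusted p is for the 4 libraries unless said otherwise, since over all 6 libraries edgeR gave 0 genes an adjusted p under 0.05. Of 13 receptors and decoys of these cytokines, 8 passed the filter on low counts, and 0 were called in either direction over the 4 libraries (edgeR). At an unadjusted p under 0.05 there were 5 in edgeR over the 4 libraries, where 36.6% of genes were, and 4 of 7 in DESeq2, where 34.6% were. OSMR, the oncostatin M receptor that pairs with gp130, was at 171, 210 and 220 CPM in NC_1, NC_2 and NC_3 and at 136, 93.4 and 120 CPM in SiCIRBP_1, SiCIRBP_2 and SiCIRBP_3. It fell by 0.75 on the log2 scale (SE 0.09, adjusted p = 0.00688, edgeR over the 4 libraries), short of 2-fold. The LIF receptor gene, LIFR, fell by 0.40 (adjusted p = 0.0296, edgeR). IL6R was at -0.47 (adjusted p = 0.124, edgeR) and IL6ST at -0.17 (adjusted p = 0.148, edgeR), with IL6R between 18.7 and 20.0 CPM in NC and between 5.95 and 16.6 CPM in SiCIRBP. In CPM, 5 of the 8 receptors had all SiCIRBP libraries below all NC libraries, as had 16.6% of genes. The receptors of the chemokines, CXCR1, CXCR2 and CCR2, the decoy receptor ACKR1 and the antagonist IL1RN were listed at 0 in all 6 libraries, and were named after their values had been seen.

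Of 12 genes of JAK and STAT3 signalling, 11 were tested and PIM1, a kinase gene that STAT3 induces, was the 1 called lower, where 1.8% of genes were. PIM1 was at 67.1, 130 and 157 CPM in NC_1, NC_2 and NC_3 and at 51.3, 39.8 and 46.1 CPM in SiCIRBP_1, SiCIRBP_2 and SiCIRBP_3. As for IL6, the groups did not overlap and NC_1 lay nearer to the SiCIRBP libraries than to NC_2 or NC_3. PIM1 fell by 1.56 on the log2 scale over the 4 libraries (SE 0.12, adjusted p = 0.00262, edgeR), and was at -1.37 over all 6 (adjusted p = 0.0913, edgeR). STAT3 fell by 0.43 (adjusted p = 0.0163, edgeR), and JAK2 fell by 0.43 (adjusted p = 0.0393, edgeR). SOCS3, the feedback inhibitor of gp130 signalling, was at -0.33 (adjusted p = 0.0639, edgeR). The median of the 11 was -0.25.

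Of 16 genes of factors that act at the IL6 promoter, all were tested, 2 were called lower and 0 higher (1.8% and 1.82% of genes), while by adjusted p alone 8 were lower and 1 was higher (9.76% and 9.62% of genes). CEBPD was at 21.2, 29.5 and 24.8 CPM in NC_1, NC_2 and NC_3 and at 13.0, 10.4 and 6.59 CPM in SiCIRBP_1, SiCIRBP_2 and SiCIRBP_3. It fell by 1.46 on the log2 scale (SE 0.29, adjusted p = 0.021, edgeR over the 4 libraries), was at -1.33 over all 6 (adjusted p = 0.0869, edgeR), and its groups did not overlap. CEBPB was at 37.0, 56.8 and 54.3 CPM in NC_1, NC_2 and NC_3 and at 30.1, 41.8 and 23.6 CPM in SiCIRBP_1, SiCIRBP_2 and SiCIRBP_3, and fell by 1.05 (SE 0.14, adjusted p = 0.00766, edgeR over the 4 libraries). Over all 6 libraries CEBPB was at -0.63 (adjusted p = 0.173, edgeR). As for LIF, NC_1 of CEBPB lay below SiCIRBP_2. Both encode C/EBP factors, the family whose letters lie 155 to 148 bases before the IL6 start in the window printed above. Matches to these letters also lie in the windows of CXCL2 and IL1B and in 9.05% of promoter windows. The part of either factor in the IL6 level was not tested. RELA, the NF-kB subunit, was at 0.005 on the log2 scale (adjusted p = 0.971, edgeR) and NFKB1 fell by 0.44 (adjusted p = 0.0293, edgeR), but was at -0.19 over all 6. JUN, a subunit of AP-1, rose by 0.55 (SE 0.07, adjusted p = 0.00779, edgeR), and lay between 330 and 331 CPM in NC and at 484 CPM or above in SiCIRBP. The median of the 16 was -0.51, and -0.33 over all 6.

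NF-kB feedback genes, which NF-kB induces in many cell types, included 0 called of 14 tested over the 4 libraries (edgeR). At an unadjusted p under 0.05 there were 6 in edgeR, where 36.6% of genes were, and 7 of 13 in DESeq2, where 34.6% were. NFKBIA, which encodes the inhibitor of NF-kB, was at 0.05 on the log2 scale over the 4 libraries (adjusted p = 0.899, edgeR). By adjusted p alone, RELB, TNIP1 and ICAM1 were lower (9.76% of genes) and SOD2 was higher (9.62% of genes). Over all 6 libraries RELB was at -0.01, TNIP1 at -0.18 and ICAM1 at 0.13. TRAF1, which encodes an adaptor of tumour necrosis factor receptors and was picked out after its values were seen, was at 4.94, 2.68 and 2.43 CPM in NC_1, NC_2 and NC_3 and at 4.21, 40.8 and 14.9 CPM in SiCIRBP_1, SiCIRBP_2 and SiCIRBP_3. SiCIRBP_1 thus lay below NC_1. The log2 fold change of TRAF1 was 1.90 over the 4 libraries (adjusted p = 0.0552 in edgeR and 0.000422 in DESeq2) and 2.57 over all 6 (adjusted p = 0.119 in edgeR and 0.0452 in DESeq2). The median of the list was -0.32 over the 4 libraries but 0.13 over all 6, with 9 of the 14 genes above 0.

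Of 14 genes of proteins that bind cytokine mRNAs and set their decay, 0 were called over the 4 libraries (edgeR). By adjusted p alone 3 were higher and 2 lower (9.62% and 9.76% of genes). At an unadjusted p under 0.05 there were 9 in edgeR, where 36.6% of genes were, and 6 in DESeq2, where 34.6% were. ZC3H12A, which encodes Regnase-1, an endonuclease that degrades IL6 mRNA, was at 5.82, 4.43 and 4.17 CPM in NC_1, NC_2 and NC_3 and at 6.92, 8.79 and 7.59 CPM in SiCIRBP_1, SiCIRBP_2 and SiCIRBP_3. The groups did not overlap, and NC_1 was the highest of the NC libraries. ZC3H12A rose by 0.76 on the log2 scale (SE 0.18, adjusted p = 0.0322, edgeR over the 4 libraries). HNRNPD, which encodes the AU-rich element binding protein AUF1, rose by 0.29 (adjusted p = 0.0392, edgeR). ZFP36, which encodes tristetraprolin, was at -0.35 (adjusted p = 0.182, edgeR).

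Of other secreted factors of the senescence type, 48 were in the table, 31 were tested over the 4 libraries, and 3 were called lower (IL15, CXCL16 and STC1) and 0 higher, where 1.8% and 1.82% of genes were. CXCL16, a transmembrane chemokine, was between 17.2 and 18.3 CPM in NC and at 7.47, 9.22 and 9.26 CPM in SiCIRBP_1, SiCIRBP_2 and SiCIRBP_3, and it fell by 1.09 on the log2 scale (SE 0.15, adjusted p = 0.00911, edgeR). STC1, which encodes the glycoprotein stanniocalcin, fell by 2.13 (SE 0.36, adjusted p = 0.0139, edgeR) from a level of 2.79 CPM or less, and IL15 fell by 1.48 (SE 0.39, adjusted p = 0.0423, edgeR) from 1.51 CPM or less. Over all 6 libraries IL15 was at -0.70 (adjusted p = 0.403, edgeR), with SiCIRBP_2 at 1.01 CPM within the range of the NC libraries. PLAT, the tissue plasminogen activator, fell by 0.99 (adjusted p = 0.00465, edgeR), just short of 2-fold. CXCL12 rose by 0.93 over the 4 libraries (SE 0.11, adjusted p = 0.00627, edgeR), but at 205 CPM in SiCIRBP_2 and 308 CPM in NC_1 it was not higher across all libraries, and its log2 fold change over all 6 was 0.52. The list as a whole had a median of -0.06 over the 4 libraries and 0.03 over all 6, and by adjusted p alone 6 were lower and 3 higher (9.76% and 9.62% of genes).

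None of 6 senescence marker genes was called over the 4 libraries (edgeR). At an unadjusted p under 0.05 there were 3 in edgeR, where 36.6% of genes were, and 3 in DESeq2, where 34.6% were. CDKN1A, which encodes the cell cycle inhibitor p21, was between 31.8 and 46.9 CPM in NC and at 34.8, 111 and 34.2 CPM in SiCIRBP_1, SiCIRBP_2 and SiCIRBP_3 (log2 fold change -0.35, adjusted p = 0.0637, edgeR over the 4 libraries). LMNB1, a lamin gene that is typically lost in senescent cells, rose by 0.53 (adjusted p = 0.0183, edgeR), with NC_1 at 185 CPM above SiCIRBP_1 at 170 CPM. Apart from SiCIRBP_2, CDKN1A thus overlapped between the groups.

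The summed levels of other gene groups were set beside the cytokine values. The 18 genes of the integrated stress response summed to 2432 CPM in NC_1, 3366 CPM in NC_2 and 3725 CPM in NC_3, and to 3085, 2654 and 2236 CPM in SiCIRBP_1, SiCIRBP_2 and SiCIRBP_3, so that NC_1 lay below NC_2 and NC_3 as for IL6, but SiCIRBP_1 and SiCIRBP_2 lay above NC_1. One of the 18, DDIT3, which encodes the stress factor CHOP, was called lower (log2 fold change -1.75, adjusted p = 0.0103, edgeR) and another, ATF5, was called higher, where 1.8% and 1.82% of genes were. By adjusted p alone 9 of the 18 were lower and 1 was higher (9.76% and 9.62% of genes). The median of the 18 was -0.49 over the 4 libraries and -0.19 over all 6. Over all 6 libraries DDIT3 was at -0.62 (adjusted p = 0.505, edgeR), with SiCIRBP_2 at 46.4 CPM between NC_2 and NC_3. The fibroblast markers summed to between 2876 and 3596 CPM in NC and between 2176 and 6061 CPM in SiCIRBP, which overlap. The cardiomyocyte markers summed to between 111 and 142 CPM in NC and between 75.1 and 103 CPM in SiCIRBP. Most of that sum was GATA4, at 87.3 to 111 CPM in NC and 47.4 to 84.6 CPM in SiCIRBP. ACTN2 and NKX2-5 overlapped between the groups. Of the 4 cardiomyocyte markers tested, NKX2-5 was called lower (log2 fold change -1.24, adjusted p = 0.016, edgeR), where 1.8% of genes were. Over all 6 libraries NKX2-5 was at -0.36 (adjusted p = 0.639, edgeR). TNNI3 and NPPA, at 1.07 CPM or less, were instead higher in SiCIRBP, with no overlap of the groups. Of 9 leukocyte markers, 3 had 3 or fewer counts in every library, with CD163, CD3E and MS4A1 at 0. The 9 summed to between 9.35 and 10.6 CPM in NC and between 12.2 and 15.2 CPM in SiCIRBP. Most of that sum was CD68, at 7.73 to 8.20 CPM in NC and 10.7 to 13.7 CPM in SiCIRBP. CD14 overlapped between the groups, with a log2 fold change of -0.51 over all 6 libraries (edgeR). LYZ was lower in SiCIRBP, at 0.137 to 0.156 CPM against 0.164 to 0.272 CPM in NC. PTPRC was at 0.178 CPM or less. The leukocyte markers thus did not rise as a set. Endothelial markers summed to between 44.3 and 52.6 CPM in NC and between 35.5 and 54.7 CPM in SiCIRBP, which overlap as well. Of these, VWF was called higher, where 1.82% of genes were. It was scarce, at 0.210 CPM or less in NC and between 0.506 and 0.548 CPM in SiCIRBP, and is given as a description. The part of any of these in the cytokine levels was not tested.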

How the data were processed

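RNA-seq had been carried out on 6 libraries of human immortalized cardiomyocytes, 3 per group, grouped and numbered as labelled. The authors deposited an estimated count per gene and library, which need not be whole, and a TPM value, per the file headers. Per the labels, fastp, HISAT and RSEM and the build hg38 were used by the submitters, and their versions are not given in the sources used here. The authors' deposited comparisons, which hold p-values, fold changes as a ratio and log2 ratios, were not used.

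After rounding, the estimated counts were fitted in edgeR 4.0.16 (R 4.3.3) (TMM, filterByExpr, quasi-likelihood test), with Benjamini-Hochberg adjustment over all genes tested. Genes at an adjusted p under 0.05 and at least 2-fold were called. The study's 4 libraries gave the values reported first, as in the study's text, and all 6 were fitted beside them. The SE was obtained from the log2 fold change and the root of the F value. The cytokine genes other than IL6 were compared over 3 against 3 libraries by exact permutation of log2(CPM + 1) in scipy 1.17.1. The result for IL1B is left out, since it had entered the edgeR test only through its NC counts. Depth was between 25726259 and 29919566 estimated counts per library, so that 3 counts correspond to about 0.1 CPM. Procedures were tested on simulated data.

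The 10 genes and all gene lists were chosen with earlier results of these data known. Named genes are the 10 cytokines, the members of each other list called in either edgeR fit with at most 4 further members on which a result turned, the 5 genes most correlated with IL6, and CIRBP, and a gene that this rule names is not reported here. Some further genes are named after their values were seen, namely the members at 0 or beyond that limit and the markers. SOD2 has more than 1 identifier, and the one with the most counts was used. Locations are from GENCODE 29 on GRCh38, and upstream sequences from RefSeq on GRCh38.p14. Alternatives were other sets of libraries, the replicate block, DESeq2 1.42.0, RLE size factors, other filters on low counts, each library left out, other pseudocounts and the TPM scale.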

Additional observations from a re-analysis of the deposited data

How the results depend on the processing

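Of the 7 tested cytokine genes, IL1B had entered the test only through its NC counts and is not counted here. Of the rest, LIF was called lower over the 4 libraries in edgeR, and 0 were called lower over all 6. Dropping any 1 of the 6, including NC_1 or SiCIRBP_2, gave 0 calls as well. DESeq2 called LIF lower on the 4 libraries and CCL2 lower on all 6. LIF was also called lower over the 4 libraries with at least 10 counts required in every library. Dropping 1 of the 4 leaves a group with a single library, so that calls from such fits are not counted. The IL6 log2 fold change was -3.04 over the 4 libraries, -2.30 over all 6, -2.69 without NC_1, -2.65 without SiCIRBP_2 and -2.30 with DESeq2 on all 6. It ranged from -3.30 to -2.83 with each of the 4 libraries left out and from -2.69 to -2.00 with each of the 6 left out. CXCL8, at -0.84 over the 4 libraries, was at 0.46 over all 6, 0.21 without NC_1 and 0.47 with DESeq2 on all 6, but at -0.58 with SiCIRBP_2 alone left out of the 6. With each of the 4 left out, CXCL1 ranged from -0.22 (without SiCIRBP_3) to 0.81 and CXCL3 from -0.92 to 0.26 (without SiCIRBP_1). Over all the other lists together, calls lower were 8 over the 4 libraries, 0 over all 6 and 5 with DESeq2 on all 6. Of all genes, 1.8%, 0.0% and 1.1% were called lower in these fits. Calls higher were 2, 0 and 1, where 1.82%, 0.0% and 1.15% of all genes were. The cause of these changes was not tested. RLE size factors and no filter changed none of the calls among the cytokine genes.

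With the replicate number as a block over all 6 libraries, IL6 was at -2.16, CXCL8 at 0.16, and 0 of the cytokine genes were called lower. The deviations of same-numbered libraries from their group means correlated at -0.12, 0.006 and -0.03, which gave no sign of pairing by number. These group means include NC_1 and SiCIRBP_2, the libraries the study left out, so that pairing cannot be settled from these values. A fit that leaves 1 library in a group assumes that it varies like the other group. IL11 and IL1A had at most 7 counts, so that depth limits them, and IL1B had at most 30.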
